A study of Mus musculus with 9 samples.

Results

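The extracellular matrix genes and matrix receptors of mouse neural stem cells were compared between cultures that had lost Smchd1 and their controls. Members were picked out of the table by gene name: collagen chains, laminin chains, integrin subunits, both hemicentins, fibronectin (Fn1), the nidogens (Nid1, Nid2), tenascins C and R (Tnc, Tnr), perlecan (Hspg2) and agrin (Agrn). They made up 95 of the 25965 rows of the deposited table: 43 collagens, 11 laminins, 2 hemicentins, 7 other glycoproteins, 26 integrins and 6 rows that share the integrin name pattern but encode no integrin subunit. Of these, 62 passed a filter on low values, which kept rows whose log2 level was 0 or more in 3 or more of the 9 libraries, and 14044 rows passed in all. The 4 Smchd1 del/del libraries came from female lines 1, 2 and 3 and male line 5, and the 5 Smchd1 fl/fl libraries from the same 4 lines and male line 7. All lines were C57BL/6, derived from E14.5 embryos and homozygous for floxed Smchd1, which encodes a silencing protein of chromatin related to the SMC proteins. The del/del cultures had been given the retrovirus MSCV-Cre-puro and then puromycin from 24 h, and were harvested on day 7, whereas the fl/fl cultures were left without virus. Loss of Smchd1 and exposure to retrovirus and puromycin therefore cannot be told apart. In the series' design text the controls are instead del/fl and every line is female. Grouping here follows the labels of the samples, which give fl/fl controls and both sexes, and if that text is right the control genotype and the sex comparison below are misnamed.

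As background, the basement membrane is a thin sheet built from networks of type IV collagen and laminin, which nidogens, perlecan and agrin link to each other. Collagen IV chains assemble as trimers, and laminins as trimers of an alpha, a beta and a gamma chain. Hemicentins are very large extracellular proteins of the immunoglobulin superfamily, known in worms and fish for tethering tissues across basement membranes. Integrins are receptors made of an alpha and a beta subunit that bind laminins, collagens or fibronectin outside the cell. Neural stem cells of the embryonic ventricular zone contact laminins through integrins, and tenascin C is a known component of their niche.

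Levels are given on the authors' log2 RPM scale, where RPM is a gene's reads per M (mega) reads in its library. Libraries held 74.0 to 105.1 M reads in del/del and 24.1 to 116.6 M in fl/fl, of which 37.2% to 44.4% and 34.8% to 53.3% fell in listed genes. Female fl/fl 2 stood apart, with the fewest reads (24.1 M) and the highest share in genes (53.3%). Smchd1 itself had 5.36, 5.04, 5.21 and 5.23 log2 RPM in del/del and 6.36, 6.81, 6.16, 6.25 and 6.37 in fl/fl (log2 fold change -1.19, adjusted p = 0.00751), so no library went against its label. All 12 neural stem cell markers passed the filter, with summed levels of 645 to 885 RPM in del/del and 593 to 1255 RPM in fl/fl. Some markers of other cells rose over both sexes, where 1.45% of all genes did: 3 of 7 astrocyte markers (Gfap, Aqp4, Slc1a2) and 2 of the 8 neuron markers kept (Nefl, Nefm). The log2 fold change was above 0 in 7 of 7 astrocyte markers (median 0.56) but in only 4 of the 8 neuron markers (median -0.08). The neuron markers therefore did not rise as a set. Astrocyte marker sums were 160 to 204 RPM in del/del and 117 to 170 RPM in fl/fl, and neuron marker sums 118 to 132 RPM in del/del and 78.3 to 99.1 RPM in fl/fl. Their part in the matrix results was not tested. In bulk RNA, fewer cells of a type and less RNA per cell cannot be told apart.

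RefSeq gave a promoter window for 69 of the 94 member symbols. The windows of 4 members are shown: Hmcn1 and Col4a6 passed the test over both sexes, Nid1 had the largest fold change of those that passed with the line as a block, and Col4a5 lies head to head with Col4a6. Each window runs from 250 bases before to 50 bases after the RefSeq start (GRCm38.p6), printed 5′ to 3′ on the gene's own strand. Capitals mark matches, on either strand, to the GC box (GGGCGG), the CCAAT box (CCAAT), the TATA box (TATAAA) and the AP-1 site (TGANTCA).
Hmcn1 (chr1:150993386-150993685, minus strand): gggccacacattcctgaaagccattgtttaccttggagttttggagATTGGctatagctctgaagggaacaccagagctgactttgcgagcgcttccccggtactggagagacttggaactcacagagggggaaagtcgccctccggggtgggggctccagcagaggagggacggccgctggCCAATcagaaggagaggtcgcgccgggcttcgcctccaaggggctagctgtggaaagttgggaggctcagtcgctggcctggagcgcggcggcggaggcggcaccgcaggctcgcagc
Nid1 (chr13:13437352-13437651, plus strand): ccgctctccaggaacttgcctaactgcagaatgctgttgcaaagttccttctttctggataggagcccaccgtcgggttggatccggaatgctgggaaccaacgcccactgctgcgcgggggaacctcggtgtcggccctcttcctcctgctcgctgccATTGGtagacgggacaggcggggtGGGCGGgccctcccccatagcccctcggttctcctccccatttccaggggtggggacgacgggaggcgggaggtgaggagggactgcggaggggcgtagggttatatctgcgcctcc
Col4a6 (chrX:141474027-141474326, minus strand): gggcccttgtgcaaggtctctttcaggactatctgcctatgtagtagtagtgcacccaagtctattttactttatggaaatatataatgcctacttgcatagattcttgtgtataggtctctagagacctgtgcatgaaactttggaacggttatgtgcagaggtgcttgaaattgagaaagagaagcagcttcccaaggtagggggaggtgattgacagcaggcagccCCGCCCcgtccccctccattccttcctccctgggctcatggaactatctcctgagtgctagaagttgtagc
Col4a5 (chrX:141475169-141475468, plus strand): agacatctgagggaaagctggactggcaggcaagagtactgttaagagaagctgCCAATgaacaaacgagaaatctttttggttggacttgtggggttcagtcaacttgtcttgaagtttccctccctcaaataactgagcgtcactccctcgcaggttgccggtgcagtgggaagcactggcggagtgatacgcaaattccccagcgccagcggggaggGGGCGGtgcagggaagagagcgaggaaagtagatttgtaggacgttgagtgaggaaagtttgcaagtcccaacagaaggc
The Hmcn1 window held 2 CCAAT boxes and no GC box, the Nid1 and Col4a5 windows 1 of each, and the Col4a6 window 1 GC box only. None of the 4 held a TATA box or an AP-1 site in these letters, and no marked match overlaps another. Over all 32851 RefSeq promoter windows of this length, 35.7% held a GC box, 37.4% a CCAAT box, 13.6% a TATA box and 7.81% an AP-1 site. The GC content was 63.3% for Hmcn1, 64.7% for Nid1, 48.3% for Col4a6 and 52.7% for Col4a5, against a median of 52.7%. CpG dinucleotides numbered 19, 20, 3 and 11 in the same order, against a median of 7, so the Col4a6 window was CpG-poor beside the other 3. The start sites of Col4a5 and Col4a6 lie 1343 bases apart on the X chromosome, and those of Col4a1 and Col4a2, another divergent pair, 21 bases apart.

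The changes that passed over both sexes were a fall of the hemicentin 1 gene and a rise of the gene for the collagen IV alpha 6 chain. Across both sexes, with sex as a term in limma, 1 member rose (Col4a6) and 1 fell (Hmcn1), at an adjusted p under 0.05. The background over all 14044 genes was 1.45% that rose and 0.0997% that fell. Lines 1, 2, 3 and 5 each gave sister cultures of both genotypes, and the same test with the line as a block called 6 members higher (Col4a2, Col4a6, Nid1, Nid2, Lama1 and Itga3) and 2 lower (Hmcn1 and Col28a1), over a background of 3.77% and 0.228%. Without line 2, to which female fl/fl 2 belongs, the blocked test called 18 members higher and 4 lower, among them the same 8 genes, over a background of 11.9% and 0.867%. Without line 1 the blocked test called 3 higher (Col4a2, Col4a6 and Nid1) and 1 lower (Hmcn1), over a background of 2.84% and 0.193%. Over the 4 blocked tests that left out 1 line each, Nid1, Col4a6 and Hmcn1 were called in 4, Nid2, Itga3 and Col28a1 in 3, and Col4a2 and Lama1 in 2. Without the block, leaving out single libraries gave 0 to 2 members that rose and 0 to 2 that fell, and without male del/del 5 no member passed. Over all genes these fits called 2 to 240 higher and 0 to 15 lower. Leaving out female fl/fl 1 added Nid1, female fl/fl 2 added Col4a5, and female del/del 3 added Col6a1 to those that rose and Col28a1 to those that fell. After median centring or quantile normalization without the block, 3 rose and 1 fell (background 1.12% and 0.15% with centring, 0.612% and 0.128% with quantiles). With the block and median centring together, 5 rose (Col4a5, Col4a6, Col5a2, Col18a1 and Nid1) and 3 fell (Hmcn1, Col28a1 and Lama4), over a background of 1.61% and 0.171%, so that the block calls of Col4a2, Nid2, Lama1 and Itga3 were lost. The median log2 fold change was 0.08 over the 62 members and -0.0041 over all genes tested. In 12 members every del/del value lay above every fl/fl value and in 3 below, with a background of 5.53% and 0.99% of all genes. In 22 members del/del exceeded fl/fl in 4 of 4 lines, and in 6 it was lower in 4 of 4, with a background of 17.9% and 4.05%. The median del/del minus fl/fl over all genes was 0.22 in line 1, -0.25 in line 2, 0.10 in line 3 and 0.08 in line 5, so levels as a whole shifted between sister cultures by amounts like many of the differences below. Of the 62 members, 5 passed the filter through del/del libraries alone (Col6a1, Col6a4, Col8a1, Hmcn2 and Itga3) and 1 through fl/fl libraries alone (Col28a1), so these had to differ to be kept. Col6a1, Col6a4, Hmcn2 and Itga3 are among the 12 members whose del/del values all lay above fl/fl.

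**Figure D1:**
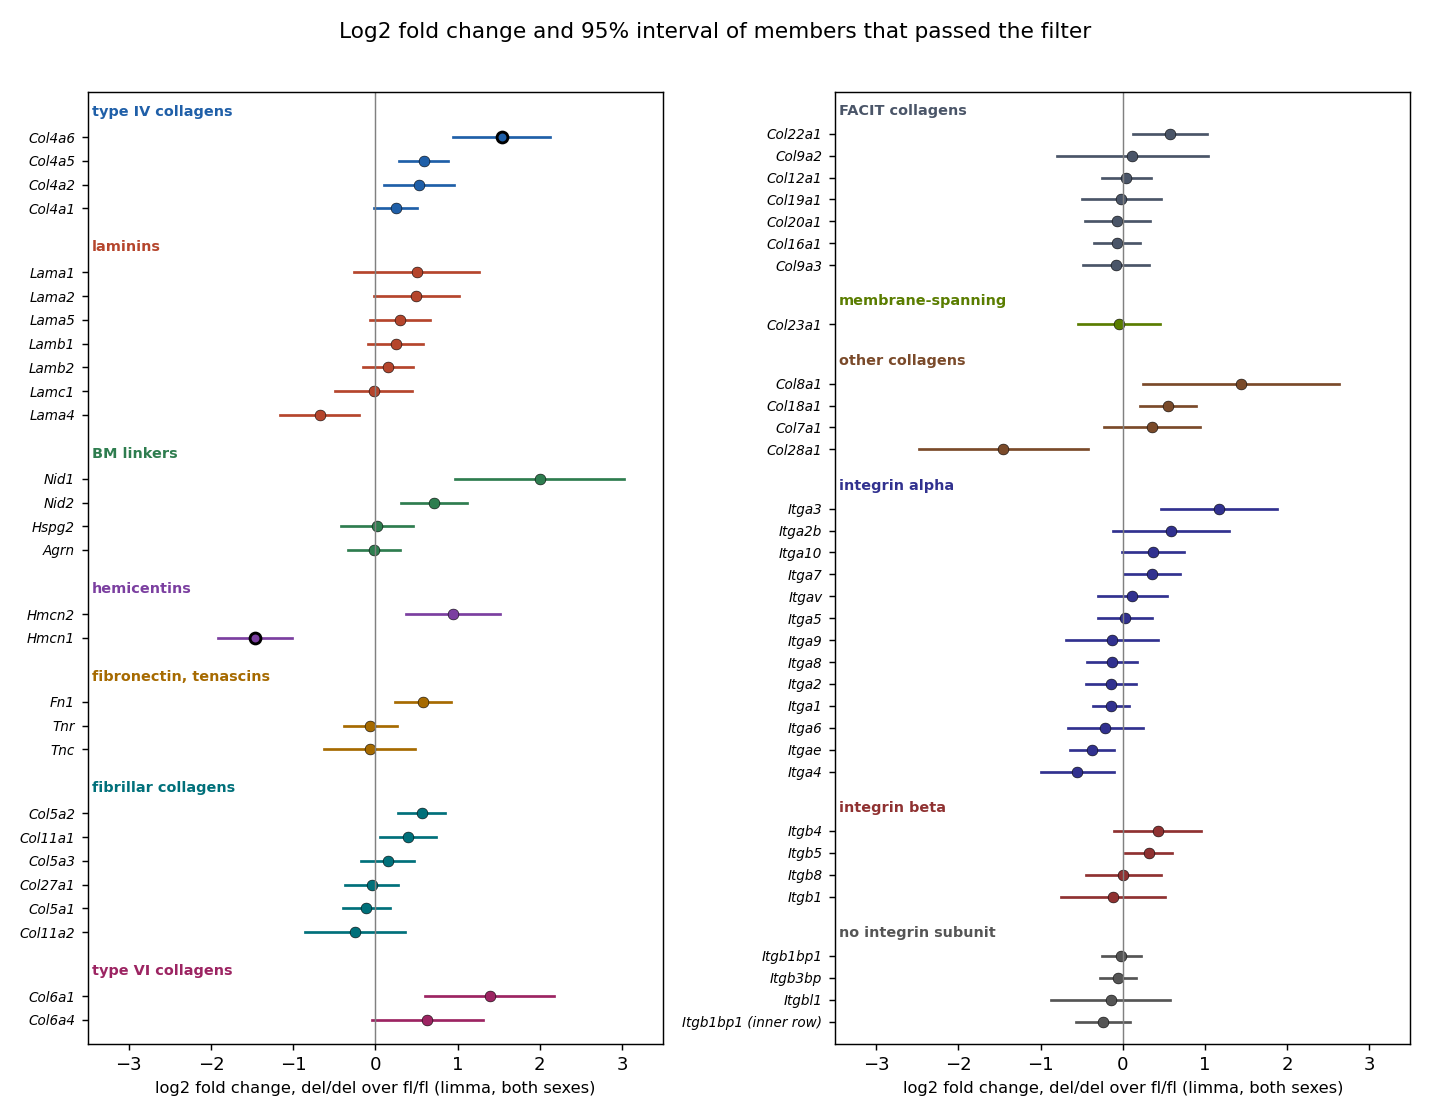
Log2 fold change of del/del over fl/fl over both sexes (points) with its 95% interval (lines) for 61 of the 62 members that passed the filter, by class. Thick black rings mark Col4a6 and Hmcn1, the members with an adjusted p under 0.05; most integrin and fibril-associated collagen intervals cross 0, while the points of all 4 type IV collagens lie to the right of it.

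Hmcn1 (chr1:150563527-150993435, mm10), which encodes hemicentin 1, fell over both sexes and was lower in del/del in 4 of 4 lines. It had 1.23, 1.64, 2.14 and 1.35 log2 RPM in female del/del 1, 2, 3 and male del/del 5, against 3.02, 2.68, 3.13, 3.20 and 3.30 in female fl/fl 1, 2, 3 and male fl/fl 5 and 7. The groups did not overlap, and the highest del/del library (female 3) stayed under the lowest fl/fl library (female 2). The log2 fold change was -1.47 ± 0.20 (SE), or 2.76-fold lower, with an adjusted p of 0.00923 (blocked by line, -1.42 and 0.00494). The depth behind it was 174 to 436 reads in del/del and 155 to 1133 reads in fl/fl. Between 74 and 530 of the reads per library lay inside Gm20631, a row wholly within the Hmcn1 span, and between 81 and 603 outside it. Without the Gm20631 reads the log2 fold change was -1.52 (adjusted p = 0.00943). Leaving out male del/del 5 ended the call (-1.28, adjusted p = 0.1125), as did keeping only the 6 libraries whose description starts with RNA- (-1.29, adjusted p = 0.0667). Over all alternatives the adjusted p ran from 6.28e-05, in the block without line 2, to 0.1125.

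Hmcn2, the second hemicentin, differed in the other direction. It had 0.31, 0.32, 0.67 and 0.92 log2 RPM in del/del and -0.18, -0.50, -0.32, -0.67 and -0.19 in fl/fl, again without overlap. Its log2 fold change of 0.95 ± 0.26 (SE) did not pass (adjusted p = 0.132, and 0.0606 with the block), and Hmcn2 was kept by the filter only through its del/del libraries.

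All 4 type IV collagen genes that passed the filter were higher in del/del in 4 of 4 lines. The largest difference was in Col4a6, whose chain is found in smooth muscle and other selected basement membranes as a trimer with Col4a5. Col4a6 (chrX:141165403-141474076) had 5.18, 4.80, 4.05 and 4.77 log2 RPM in female del/del 1, 2, 3 and male del/del 5, against 3.64, 2.54, 2.96, 3.56 and 3.32 in female fl/fl 1, 2, 3 and male fl/fl 5 and 7. No del/del value reached down to a fl/fl value. The rise was 2.90-fold, a log2 fold change of 1.54 ± 0.26 (SE, adjusted p = 0.022, and 0.00485 under the line block), on 1641 to 2926 reads in del/del and 140 to 1455 reads in fl/fl. The difference was 1.54, 2.26, 1.09 and 1.20 in lines 1, 2, 3 and 5. The call did not hold without female del/del 1 (adjusted p = 0.0734), female del/del 2 (0.0844), male del/del 5 (0.135) or female fl/fl 3 (0.0683), nor in voom on the recovered reads (0.0553). The log2 fold change stayed between 1.28 and 1.72 over all alternatives.

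The neighbour Col4a5 had 6.68, 6.35, 6.34 and 6.42 log2 RPM in del/del and 5.94, 6.04, 5.63, 5.72 and 5.96 in fl/fl. The groups were apart, but the log2 fold change of 0.59 ± 0.14 (SE) did not pass (adjusted p = 0.0731, and 0.0847 with the block). Col4a5 did pass in 7 of 20 alternatives, among them median centring (adjusted p = 0.0147), quantile normalization (0.0178), voom (0.0124) and the block with centring (0.0227). Col4a1 and Col4a2 encode the chains of the trimer found in nearly all basement membranes. Col4a2 had 3.44, 3.59, 3.87 and 3.46 log2 RPM in del/del and 2.99, 2.61, 3.37, 2.87 and 3.51 in fl/fl, where only male fl/fl 7, which has no sister culture, overlapped the del/del range. Its log2 fold change was 0.53 (adjusted p = 0.325), and with the line as a block it rose by 0.63 ± 0.12 (SE, adjusted p = 0.0273), a call lost when the block was fitted with median centring (0.60, adjusted p = 0.132). Col4a1 ranged from 5.08 to 5.30 log2 RPM in del/del and from 4.83 to 5.26 in fl/fl (log2 fold change 0.25, adjusted p = 0.549, and 0.222 with the block).

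**Figure D2:**
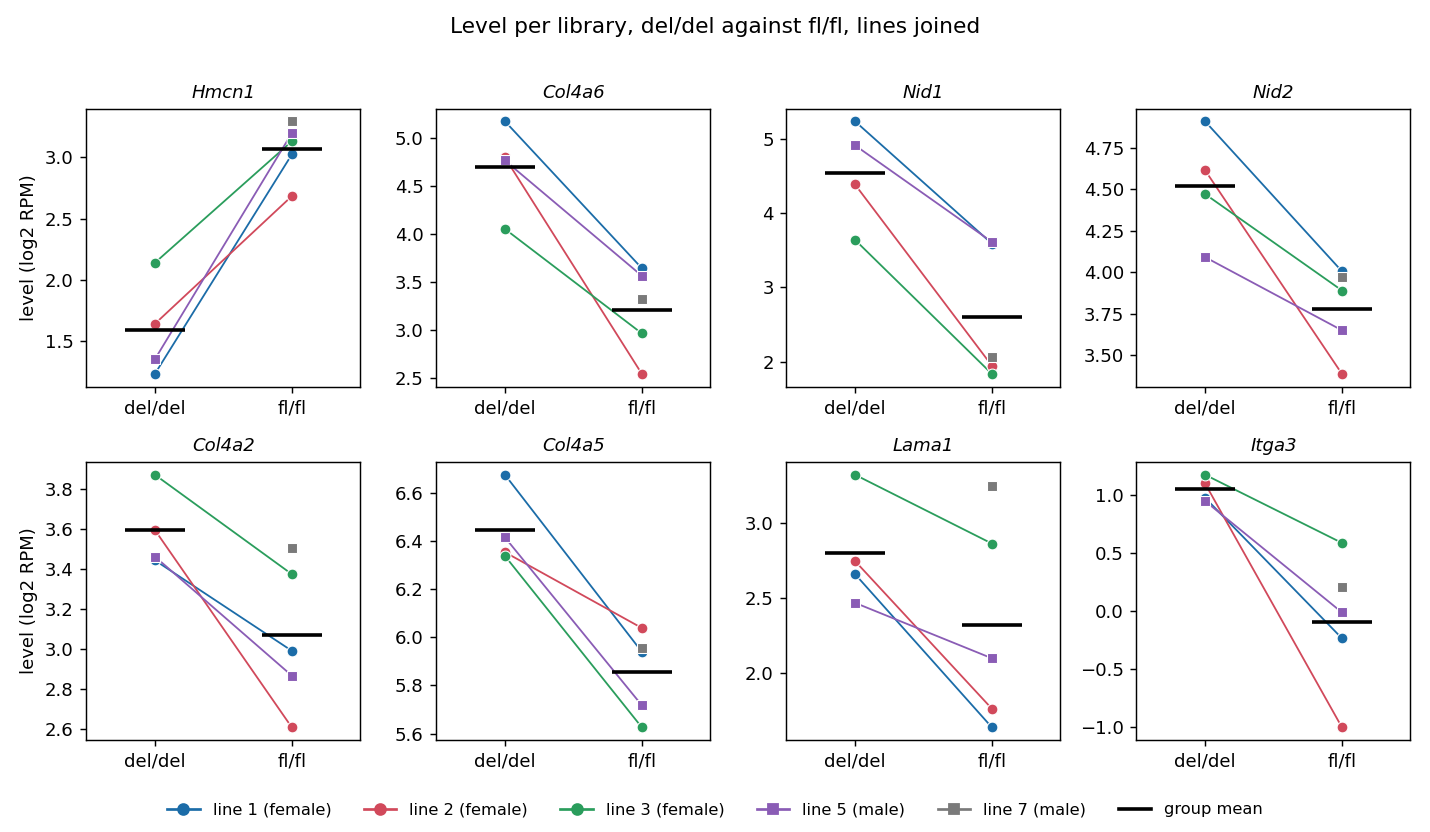
Level in log2 RPM of 8 members in each library, del/del left and fl/fl right, with sister cultures of a line joined, circles for female and squares for male lines and black bars for group means. Hmcn1 is lower in del/del in all 4 joined lines and the other 7 genes are higher in all 4; the vertical axes differ between panels.

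The nidogens, which bridge the laminin and collagen IV networks, were both higher in del/del. Nid1 (chr13:13437602-13512275) had 5.24, 4.39, 3.64 and 4.91 log2 RPM in female del/del 1, 2, 3 and male del/del 5, against 3.59, 1.95, 1.84, 3.61 and 2.06 in female fl/fl 1, 2, 3 and male fl/fl 5 and 7. Lines 1 and 5 were high in both genotypes, which spread each group, and the lowest del/del value (line 3) was only just above the highest fl/fl value (line 5). Over both sexes the log2 fold change of 2.00 ± 0.46 (SE) did not pass (adjusted p = 0.0739), and with the line as a block Nid1 rose by 1.80 ± 0.17 (SE, adjusted p = 0.0027), with line differences of 1.65, 2.44, 1.80 and 1.30. Nid2 had 4.91, 4.62, 4.47 and 4.09 log2 RPM in del/del and 4.01, 3.39, 3.89, 3.65 and 3.97 in fl/fl, without overlap. Its log2 fold change was 0.71 ± 0.18 (SE, adjusted p = 0.102), and with the line as a block it rose by 0.79 (adjusted p = 0.0224), but not with the block and median centring (0.76, adjusted p = 0.083). Both proteoglycans of the sheet stayed within the spread between libraries. Perlecan (Hspg2) ranged from 5.63 to 6.32 log2 RPM in del/del and 5.55 to 6.37 in fl/fl (log2 fold change 0.02, 95% interval -0.41 to 0.45), and agrin from 6.55 to 6.94 and 6.47 to 6.87 (-0.02, -0.33 to 0.30).

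Among the 8 laminin chains kept, none passed over both sexes, and 1 (Lama1) rose with the line as a block. Lama1, the alpha chain of the earliest embryonic laminin, had 2.66, 2.75, 3.32 and 2.47 log2 RPM in del/del and 1.64, 1.77, 2.86, 2.10 and 3.24 in fl/fl. The groups overlapped, since lines 3 and 7 were high, but del/del exceeded fl/fl in each line by 0.37 to 1.02. The log2 fold change was 0.50 (adjusted p = 0.85), and 0.71 ± 0.15 (SE, adjusted p = 0.0348) with the block, a call lost with the block and median centring (0.67, adjusted p = 0.122). Lama4, an alpha chain known from vessels and muscle, was the only laminin lower in 4 of 4 lines, with 4.58, 4.66, 5.23 and 4.44 log2 RPM in del/del and 4.87, 5.57, 5.71, 5.15 and 5.60 in fl/fl (log2 fold change -0.68, adjusted p = 0.218, and 0.0526 with the block). It passed with the block and median centring (-0.64, adjusted p = 0.0181) and with array weights (adjusted p = 0.0381). The other alpha chains named, Lama2 (0.50, adjusted p = 0.547) and Lama5 (0.30, adjusted p = 0.679), did not pass. Nor did the beta chain Lamb1 (0.25, adjusted p = 0.773). The gamma chain Lamc1, shared by most laminins, ranged from 7.44 to 7.87 log2 RPM in del/del and from 7.30 to 8.24 in fl/fl, the highest value being female fl/fl 2 (log2 fold change -0.02, and 0.16 without that library).

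Taking type IV collagens, laminins, nidogens, perlecan and agrin as 1 group, composed after the values were seen, 16 of 21 genes passed the filter. Because the group was chosen this way, its counts and medians describe these genes and are no test of the group against all genes. Over both sexes 1 of the 16 rose and none fell in limma, 7 having an unadjusted p under 0.05, and with the line as a block 5 rose and none fell, 10 having an unadjusted p under 0.05. Over all genes 1.45% rose and 0.0997% fell over both sexes, and 3.77% rose and 0.228% fell with the block. An unadjusted p under 0.05 was found in 9.84% of all genes over both sexes and in 14.0% with the block. With the block and median centring 3 of the 16 rose (Col4a5, Col4a6 and Nid1) and 1 fell (Lama4), over a background of 1.61% and 0.171%. Their median log2 fold change was 0.34 over both sexes, against -0.0041 over all genes, and by line it was 0.53, 0.38, 0.38 and 0.29 in lines 1, 2, 3 and 5. Endothelial, mural and fibroblast cells also make basement membrane, so their markers were read beside it. None of the 3 endothelial markers kept (of 10) passed over both sexes, but 2 had an unadjusted p under 0.05 in limma, and their median log2 fold change was 0.61. Of these 3 markers, 2 had a log2 fold change above 0 over both sexes, and the lowest was -0.13. By line their median difference was -0.10, 0.87, 0.97 and 1.19 in lines 1, 2, 3 and 5. Flt1 alone rose with the line as a block (log2 fold change 2.00, adjusted p = 0.00995, background 3.77%). Flt1 also passed with the block and median centring (1.96, adjusted p = 0.0268, background 1.61%). Summed endothelial markers were 6.27 to 10.6 RPM in del/del and 3.81 to 7.59 RPM in fl/fl. Of the 12 fibroblast, mesenchymal and mural markers, 3 were kept and none passed (sums of 148 to 190 RPM in del/del and 130 to 237 RPM in fl/fl), with a median log2 fold change of 0.18. The part of these cells in the matrix results was not tested.

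Fibronectin, a ligand of several integrins, had 6.46, 6.63, 6.73 and 6.58 log2 RPM in del/del and 6.25, 5.77, 5.99, 5.80 and 6.33 in fl/fl. Every del/del library lay above every fl/fl library, but the log2 fold change of 0.58 ± 0.15 (SE) did not pass (adjusted p = 0.126, and 0.11 with the block). Tnc ranged from 8.34 to 8.66 log2 RPM in del/del and from 8.29 to 9.34 in fl/fl (log2 fold change -0.07, and 0.15 without female fl/fl 2, which held the highest value), and 77.0% of its span is shared with the row 8030451A03Rik. Tnr, a tenascin of oligodendrocytes and neurons, ranged from 4.17 to 4.50 and from 4.00 to 4.65 (-0.06, adjusted p = 0.997).

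Of 43 collagens, 24 were kept, and their median log2 fold change was 0.20. Among the 6 fibrillar collagens kept, none passed. Col5a2 was the closest: 6.50, 6.07, 6.22 and 6.17 log2 RPM in del/del and 5.86, 5.71, 5.46, 5.64 and 5.67 in fl/fl, without overlap (log2 fold change 0.56 ± 0.13 SE, adjusted p = 0.0741, and 0.0841 with the block). Col11a1, a minor fibril chain, had a log2 fold change of 0.40 (adjusted p = 0.36) and Col5a3 one of 0.15 (adjusted p = 0.997). The major interstitial collagens did not pass the filter and were high in 1 library only. Col1a1 had -0.62, 2.53, -0.63 and -0.60 log2 RPM in female del/del 1, 2, 3 and male del/del 5, and -0.94, -2.01, -0.49, -0.76 and 0.06 in fl/fl. Col1a2, the second chain of the same trimer, had -0.14, 2.67, -0.36 and -0.38 log2 RPM in del/del, and 0.58, -0.20, -0.08, -0.08 and -1.24 in fl/fl. Female del/del 2 therefore held 607 Col1a1 reads, against 48, 64 and 67 in the other del/del libraries. The same library was the highest of the 9 in Col2a1 (0.30) and Col3a1 (-0.81), and in the collagen cross-linking enzyme Lox (1.66, on 333 reads, with at most 20 reads in any other library). Among fibroblast markers in this library, Mgp had 38 reads, against at most 4 elsewhere, while Dcn had 4 and Lum 0, and the part of other cells was not tested. By Dixon's test female del/del 2 was apart from the other del/del libraries on the high side in 0.439% of the 2732 rows under the filter with at least 100 reads, and in 0.0641% of the rows kept.

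**Figure D3:**
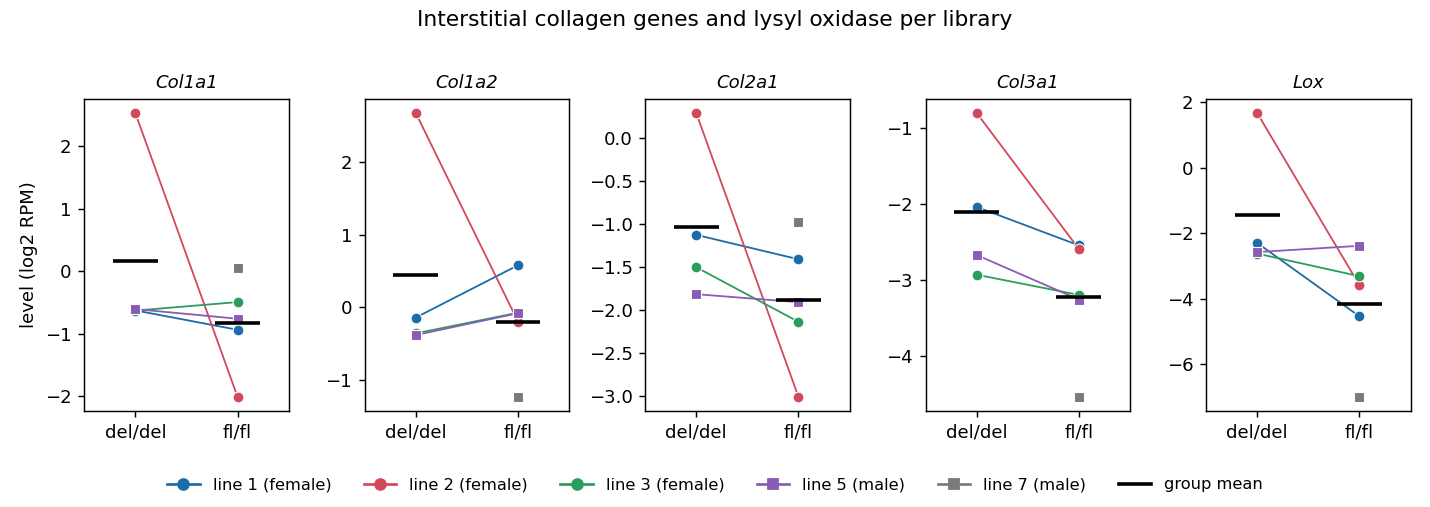
Level in log2 RPM of 4 interstitial collagen genes and of Lox in each library, del/del left and fl/fl right, sister cultures joined, circles for female and squares for male lines, black bars for group means. Female del/del 2 is the top point in all 5 panels; the lowest Lox point, male fl/fl 7, stands for 0 reads, and the vertical axes differ between panels.

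Type VI collagen forms beaded microfibrils around cells. Col6a1 had 1.46, 1.49, 0.09 and 0.81 log2 RPM in del/del and -0.10, -0.89, -0.02, -0.67 and -0.70 in fl/fl, without overlap, although line 3 differed by only 0.11 (log2 fold change 1.39 ± 0.35 SE, adjusted p = 0.105, and 0.0641 with the block). Col6a4 was also apart (0.01 to 0.33 in del/del, -1.01 to -0.10 in fl/fl, log2 fold change 0.63, adjusted p = 0.566). Both genes were kept by the filter through their del/del libraries alone, so their lack of overlap was largely set by the filter and is no support for a difference. Under the filter, 2 of the 22 members with at least 100 reads in all had del/del values wholly above fl/fl and none wholly below, and both were type VI chains. Over all 2732 such rows 8.05% lay wholly above and 0.512% wholly below, so the members' count was near the background. Col6a2 had 39, 111, 41 and 30 reads in del/del and 12, 5, 20, 14 and 22 in fl/fl, and Col6a3 had 40, 50, 19 and 32 reads in del/del and 6, 1, 12, 5 and 11 in fl/fl. Tested with no filter, Col6a3 rose (log2 fold change 2.47 ± 0.53 SE, adjusted p = 0.0497).

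Among the remaining collagens no gene passed over both sexes. Col28a1, a collagen with von Willebrand factor A domains, had -0.57, -1.04, 1.28 and -0.10 log2 RPM in del/del and 0.70, 1.54, 1.91, 1.52 and 1.00 in fl/fl. Female del/del 3 overlapped the fl/fl range, but within lines del/del was lower by 0.63 to 2.58, and with the line as a block Col28a1 fell by 1.52 (adjusted p = 0.0256, and 0.223 over both sexes without the block). The filter kept Col28a1 through its fl/fl libraries alone, so it had to differ to be kept. Col18a1, the collagen that carries endostatin, had 6.58, 6.07, 5.93 and 5.92 log2 RPM in del/del and 5.58, 5.68, 5.48, 5.34 and 5.66 in fl/fl, apart from each other (log2 fold change 0.55 ± 0.15 SE, adjusted p = 0.14, and 0.0847 with the block). Of its span, 7.72% is shared with the row Slc19a1, where reads of the 2 genes cannot be told apart. In all, Slc19a1 held 34904 reads and Col18a1 48144. Col8a1, a short-chain collagen, varied widely, from -0.27 to 0.86 log2 RPM in del/del and from -1.87 to 0.68 in fl/fl (log2 fold change 1.43, adjusted p = 0.347). It was kept by the filter through its del/del libraries alone. The fibril-associated collagens, which coat collagen fibrils, had a median log2 fold change of -0.02 over 7 genes. Col22a1 was the exception among those named (1.47 to 2.04 log2 RPM in del/del, 0.62 to 1.40 in fl/fl, log2 fold change 0.57, adjusted p = 0.308), while Col12a1 (0.04), Col16a1 (-0.07) and Col9a3 (-0.08) had adjusted p of 0.997. Col23a1, the membrane-spanning collagen kept, had a log2 fold change of -0.05 (adjusted p = 0.997).

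Among the receptors, the 17 integrin subunits kept had a median log2 fold change of 0.01, with 9 above 0, against 48.9% of all genes. For comparison 15 of the 24 collagens and 6 of the 8 laminins kept were above 0. Over both sexes no integrin passed in limma, 5 having an unadjusted p under 0.05 (9.84% of all genes did), and with the line as a block 1 rose (background 3.77%). That was Itga3, the alpha subunit of a laminin receptor, with 0.98, 1.10, 1.18 and 0.95 log2 RPM in del/del and -0.24, -1.01, 0.59, -0.01 and 0.20 in fl/fl. Del/del values were tight and all above fl/fl (log2 fold change 1.17, adjusted p = 0.132, and 1.22 ± 0.26 SE, adjusted p = 0.0368, with the block). The call was lost with the block and median centring (1.19, adjusted p = 0.116), and the gene was kept by the filter only through del/del libraries. Itga4, which pairs with beta 1 to bind fibronectin and VCAM1, was lower in every del/del library (5.76, 5.51, 5.77 and 5.50 log2 RPM, against 5.94, 6.78, 5.91, 6.36 and 5.83 in fl/fl) and did not pass (log2 fold change -0.55, adjusted p = 0.327, and 0.215 with the block). Itgae was also lower without overlap (-0.37, adjusted p = 0.229), but its reads belong almost wholly to Gsg2, a gene inside its span: 30 to 39 of 382 to 491 reads in del/del and 3 to 74 of 151 to 701 reads in fl/fl lay outside Gsg2. On those few reads the log2 fold change was 0.32.

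The other integrin subunits named did not pass over both sexes or with the block. Itgb1, the partner of most alpha subunits here, had 7.37, 7.03, 7.16 and 7.04 log2 RPM in del/del and 6.94, 8.33, 6.92, 6.87 and 7.05 in fl/fl. Female fl/fl 2 was the highest library, and the log2 fold change of -0.12 was 0.20 without it (adjusted p of 0.997 with it). Itga6, a laminin receptor subunit and stem cell marker, was likewise highest in that library (7.35), with 6.34 to 6.68 in del/del (log2 fold change -0.21, adjusted p = 0.997). Itgb8, which with alpha V activates latent TGF-beta, had a log2 fold change of 0.01 (95% interval -0.45 to 0.46) and Itgav one of 0.11. Itga7, another laminin receptor subunit, had 7.35, 7.00, 6.96 and 7.14 log2 RPM in del/del and 6.74, 7.06, 6.67, 6.49 and 6.77 in fl/fl (0.35, adjusted p = 0.483), where female fl/fl 2 alone overlapped. Voom on the recovered reads called Itga7 and Col4a5 higher. Itgb5 (0.32, adjusted p = 0.415) and Itgb4, the beta partner of alpha 6 in hemidesmosomes (0.43, adjusted p = 0.709), did not pass.

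Female fl/fl 2 was apart from the other fl/fl libraries by Dixon's rule, on the high side, in Lamc1, Tnc, Itga6, Itgb1, Itgb8 and Itgbl1. Over all kept genes this library was apart high in 22.5% and apart low in 0.819%. In this library the median deviation from each gene's median over the 9 libraries was 0.14 for integrins, -0.12 for collagens, -0.29 for laminins and -0.45 for the 7 glycoproteins, against 0.23 for all kept genes (log2 RPM). The part of this library's depth and read share was not tested.

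**Figure D4:**
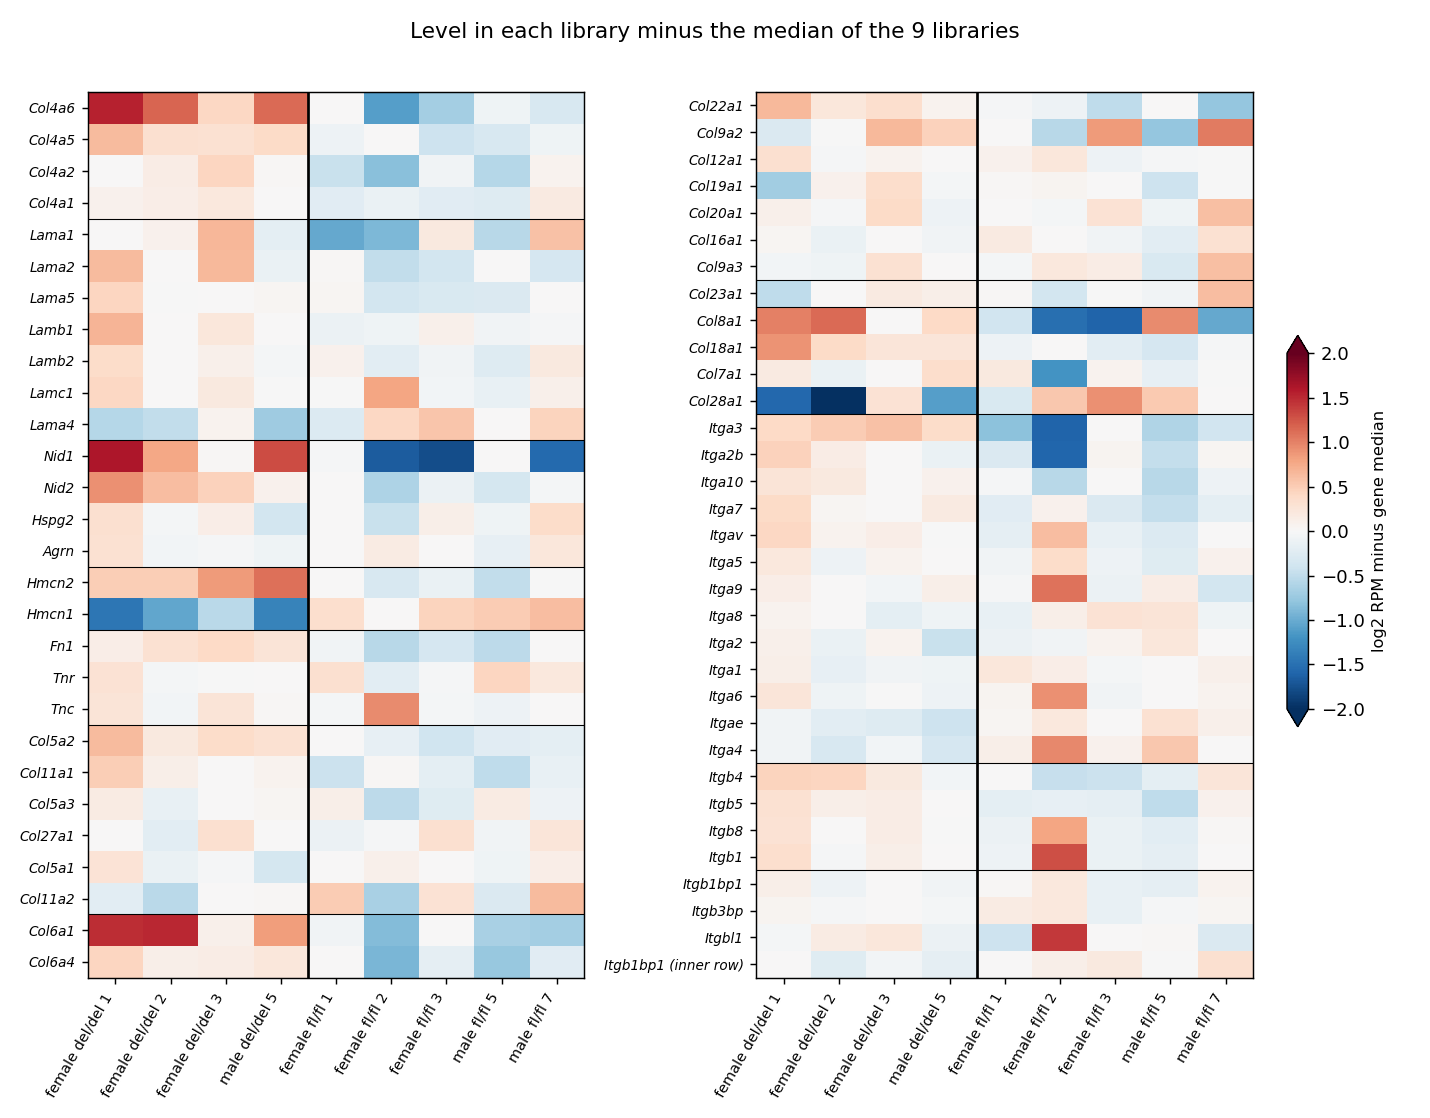
Level of 61 of the 62 members in each library minus the gene's median over the 9 libraries (colour, log2 RPM, capped at 2 in either direction), del/del left and fl/fl right of the vertical line, classes separated by horizontal lines. Female fl/fl 2 is red across many integrins and blue for the nidogens, and the Hmcn1 row is blue in all 4 del/del libraries.

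Of the 6 rows with integrin-like names that encode no subunit, 4 were kept and none passed. Itgb1bp1, a binding protein of the beta 1 tail, appeared as a pair of rows (log2 fold changes of -0.02 and -0.24), the second wholly inside Asap2. Itgb3bp (-0.06) encodes a centromere protein and Itgbl1 (-0.15) a secreted protein of integrin-like repeats.

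In the 3 female lines alone no member passed in limma without the block, in either direction (background 0.0142% that rose and 0% that fell). In that test 18 members had an unadjusted p under 0.05 (6.52% of all genes did). Voom also called no member, and of all 14044 genes it called 2 higher and 1 lower. With the line as a block 6 rose in females (Col4a6, Col8a1, Nid1, Nid2, Itga3 and Lama1) and 2 fell (Hmcn1 and Col28a1), over a background of 1.87% and 0.0926%. Of these, the filter kept Col8a1 and Itga3 through del/del libraries alone and Col28a1 through fl/fl libraries alone. With the block and median centring Nid1 alone rose and none fell, over a background of 0.164% and 0.00712%, so the other 7 female calls, Hmcn1 and Col4a6 included, were lost. In males, with 1 del/del library assumed to vary like the other groups, no member passed (7 with an unadjusted p under 0.05, against 2.63% of all genes, and a background of 0% for adjusted calls in both directions). Hmcn1 differed by -1.28 in females and -1.89 in males, and Col4a6, on the X chromosome, by 1.63 in females and 1.32 in males. The test of the difference between the sexes called no member and no gene (background 0%), with an unadjusted p under 0.05 in 1 member, Itga2 (0.05 in females, -0.56 in males), and in 6 genes overall. For Hmcn1 the effect in females minus that in males was 0.62 (95% interval -0.34 to 1.57), and for Col4a6 it was 0.31 (-1.03 to 1.65). Between female and male fl/fl libraries no member differed, at an unadjusted p under 0.05 either (background 0.0142% higher and 0.0214% lower in females).

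Other matrix genes were read from lists by function. Over both sexes no gene passed among 14 collagen-modifying enzymes, 11 metalloproteinases and inhibitors, 9 hyaluronan matrix genes, 19 further matrix and receptor genes and 15 integrin adaptors that were kept. The median log2 fold changes were -0.06, 0.14, 0.08, 0.03 and -0.03 in that order. The smallest p among the enzymes were those of P4ha2 (0.33, adjusted p = 0.323) and Adamts14 (0.35, adjusted p = 0.457), and among hyaluronan matrix genes those of Has2 (-0.43, adjusted p = 0.347) and Cd44 (0.38, adjusted p = 0.375). Blocked by line, 4 of these 68 genes rose, near the background of 3.77%: Timp4, a metalloproteinase inhibitor (0.47, adjusted p = 0.0485), Bcam, a laminin alpha 5 receptor (1.11, adjusted p = 0.0243), Thbs2, a thrombospondin (0.69, adjusted p = 0.012), and Parvb. Fbln5, an elastic fibre protein, was the only one of them that fell, by 0.86 (adjusted p = 0.0478), over a background of 0.228% of all genes. With the block and median centring, of these 5 Parvb alone passed (1.40, adjusted p = 0.0208), the others having an adjusted p of 0.0665 to 0.146. Parvb, an adaptor that binds integrin-linked kinase, had 4.84, 4.17, 3.55 and 4.93 log2 RPM in del/del and 3.58, 2.16, 2.25, 3.76 and 2.94 in fl/fl. Lines 1 and 5 were high in both genotypes, as for Nid1, and the log2 fold change was 1.54 (adjusted p = 0.068) over both sexes and 1.43 (adjusted p = 0.00328) with the block. Mmp16 (0.42, adjusted p = 0.173), Sdc4 (0.35, adjusted p = 0.327) and Tns1 (0.33, adjusted p = 0.457) did not pass.

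The remaining 33 members did not pass the filter, and 25 of them had a log2 level under 0 in every library. The 33 included the leukocyte integrins Itgal, Itgam, Itgax and Itgb2, the type IV chains Col4a3 and Col4a4, and the cartilage collagen Col10a1. They held up to 1340 reads over the 9 libraries, 11 held fewer than 100, and Itgb2l had none.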

How the data were processed

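RNA-seq was measured in 9 libraries of neural stem cells, 4 Smchd1 del/del and 5 Smchd1 fl/fl. The authors deposited log2 values, log2 of reads per M reads of each library (log2 RPM), for 25965 rows. Per the submitters' processing notes, TopHat2 2.0.12, bcl2fastq and edgeR 3.8.2 were used, with mm10. What counted the reads, from which annotation release and with what strand setting is not given in the sources used here, so reads of overlapping genes on opposite strands cannot be told apart. At least 99.9961% of values were whole reads within 0.05 reads once rescaled, with no read entered as 0.9 reads, which gave 24.1 to 116.6 M reads per library. In 1342 of 1342 pairs of rows where one span lies inside another (inner row of at least 50 reads), the outer row held at least the inner row's reads, so counts appear to cover whole gene spans, and levels are not set per length or ranked between genes.

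Values were tested with limma 3.58.1 (R 4.3.3, lmFit and eBayes with a trend) on rows whose log2 level was 0 or more in 3 or more libraries, with sex as a term and Benjamini-Hochberg adjustment over all 14044 rows kept, at a threshold of 0.05. The fit was tested on simulated reads with the library sizes of these data but without line effects or shifts between libraries. That test cannot show how the fit deals with either. Alternatives were the line as a block, median centring, quantile normalization, other filters, a pseudocount of 1, array weights, no sex term, voom on the recovered reads, the 6 libraries whose description starts with RNA-, and leaving out each library. The block without each line and contained rows left out were chosen after seeing the data. Tables and plots used Python 3.11.15, pandas 2.3.3 and matplotlib 3.10.9.

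Line numbers pair the cultures, since each line was divided before transduction. Deviations from the group means of the same line correlated at 0.868, 0.582 and 0.758 in lines 1, 2 and 3, while del/del 2 with fl/fl 3 gave 0.728 and del/del 3 with fl/fl 2 gave 0.494. Without the block, p-values measure the spread between these libraries and leave the pairing of sister cultures aside. With the block they measure how the difference between sister cultures varied from line to line. Groups follow the sample labels, while in the series' design text the controls are del/fl and every line is female.

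Genes named are those that passed over both sexes or in females, the 3 smallest p and the highest mean level per class, the hemicentins and non-collagen glycoproteins, the 5 largest rises and falls without overlap, and the 2 smallest p per other list; 1 of these is not reported here. Lama1, Lama5, Lamb1, Col4a1, Itgb8, Itgav, Itga6, Itga2, Lox, the fibrillar and type VI collagens under the filter, the members called only under the block and the marker genes were chosen after their values were seen. Members and lists were chosen with earlier results of these data known. All 95 rows matched a protein-coding gene of GENCODE by symbol and place.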

Additional observations from a re-analysis of the deposited data

Results flagged for a closer look

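In 12 of the 108 groups of 4 or 5 libraries looked at, 1 library lay apart from the rest by Dixon's test, all on the high side. The cut-off flags about 1 in 20 groups by chance. The count cannot be set against that rate, because some genes were chosen after their values were seen and all groups share the same libraries. Over all kept genes female fl/fl 2 was apart high in 22.5%. In female fl/fl 2 these were Tnc (9.34 log2 RPM), Itgb1 (8.33), Lamc1 (8.24), Itgb8 (7.68), Itga6 (7.35) and Itgbl1 (2.93). This library had 24.1 M reads and 53.3% of reads in genes, and its part in these values was not tested. In female del/del 2 the interstitial collagens Col1a1 (2.53 log2 RPM) and Col1a2 (2.67) lay apart. In female del/del 1 Lama5 (7.52 log2 RPM), Agrn (6.94) and Tnr (4.5) lay apart, and in male fl/fl 7 Col4a1 did (5.26). Without these libraries Agrn, Tnr and Col4a1 did not pass over both sexes either.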

How the results depend on the processing

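Over both sexes, 1 member rose and 1 fell. The number that rose was 15 with array weights, 6 with the line as a replicate block, 5 with the block and median centring, 3 with median centring, quantile normalization, no filter or no sex term, 2 with voom and in the libraries whose description starts with RNA-, and 0 to 2 with 1 library left out. The number that fell was 4 with array weights, 2 with the block, 3 with the block and centring, 0 in the RNA- libraries and 0 to 2 with 1 library left out. Over all 14044 genes array weights called 1330 higher and 280 lower, no sex term 265 and 16, and voom 163 and 17. With no filter 278 and 10 of 25965 rows passed, and in the RNA- libraries 173 and 6 of 13894. With 1 library left out, 2 to 240 genes rose and 0 to 15 fell. In females, where none passed, array weights gave 3 and 1 (235 and 15 over all genes), the block 6 and 2, and the block with centring 1 that rose. With the block and 1 line left out, 3 to 18 rose and 1 to 4 fell (259 to 1664 and 13 to 121 over all genes). The cause was not tested. Hmcn1 and Col4a6 kept their direction in every alternative.

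Of 48 members recomputed, 30 never changed sign and 18 did, in 65 cases, all with a log2 fold change within 0.3735 of 0. Under the block the values were 0.040 for Agrn, 0.048 for Col23a1, 0.038 for Col9a3, 0.0049 for Lamc1 and 0.013 for Itgb1bp1, and with centring too 0.0056 for Agrn, 0.013 for Col23a1, 0.0028 for Col9a3 and -0.0066 for Itgb8. Centring alone gave -0.0095 for Itgb8, and no sex term 0.015 for Lamc1. Quantile normalization gave 0.030 for Agrn, 0.033 for Lamc1 and 0.030 for Tnc, and voom -0.059 for Hspg2 and 0.0046 for Lamc1. Array weights gave 0.034 for Col23a1, -0.035 for Col5a3, 0.041 for Col9a3, -0.18 for Hspg2, 0.13 for Itgb1, 0.029 for Itgb1bp1, 0.14 for Itgbl1, 0.087 for Lamc1 and 0.092 for Tnc. The RNA- libraries gave -0.019 for Col12a1, 0.034 for Col16a1, 0.24 for Col23a1, 0.053 for Col9a3, -0.0048 for Itgav and -0.096 for Itgb8. Leaving out contained rows gave 0.32 for Itgae and 0.028 for Itgb3bp. With 1 library left out, the ranges were -0.098 to 0.040 (Agrn), -0.023 to 0.092 (Col12a1), -0.15 to 0.073 (Col23a1), -0.19 to 0.038 (Col9a3), -0.13 to 0.25 (Hspg2), -0.20 to 0.047 (Itga2), -0.26 to 0.20 (Itgb1), -0.075 to 0.042 (Itgb1bp1), -0.089 to 0.21 (Itgb8), -0.37 to 0.21 (Itgbl1), -0.11 to 0.16 (Lamc1), -0.16 to 0.15 (Tnc) and -0.16 to 0.053 (Tnr). Female fl/fl 2 has the fewest reads, which limits precision for members of few reads.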

Other observations

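The libraries female del/del 1, female fl/fl 1 and male fl/fl 7 have descriptions without the RNA- prefix of the other 6. Of 84 members with at least 100 reads, 3 were lower in these 3 libraries without overlap (3.57%, against 6.62% of 16776 rows) and 2 were higher, Col16a1 and Itgb3 (2.38%, against 3.94%). The lower ones were the leukocyte integrin genes Itgam and Itgad and the type VI chain Col6a6, all under the filter and named after their values were seen. Itgam had -1.89 log2 RPM in female del/del 1, -4.87 in female fl/fl 1 and -4.85 in male fl/fl 7, against -1.07 to -0.74 in the other del/del and -1.29 to -0.42 in the other fl/fl libraries. The cause was not tested.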
